A study of Mus musculus with 8 samples.

Results

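Mediator and TFIID are the large protein assemblies through which RNA polymerase II is brought to promoters, and the transcripts of their subunits were followed in mouse testis after an antibody against PD-L1. The genes were taken from the deposited table by symbol: every Med gene with a number alone, every Taf gene with a number and at most an a, b or l after it except Taf7l, and Tbp, Cdk8, Cdk19 and Ccnc. That gave 52 genes of 57690 rows, each symbol on a row of its own, so no choice by level was needed. Of the 52 genes, 31 belong to Mediator and 16 to TFIID. The other 5 carry a Taf name and work elsewhere: Taf5l and Taf6l in the SAGA coactivator, Taf1a and Taf1b in the selectivity factor of RNA polymerase I, and Taf15 as an RNA-binding protein. All 52 averaged 1 TPM or more and entered the test, among 20343 genes that did so. TPM gives the abundance of a transcript per length as its share of all transcripts in the library.

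The anti-PD-L1 group held 4 libraries from testes of male C57BL/6 mice injected 2 times into the peritoneum with 200 µg of anti-PD-L1. The IgG group held 4 libraries from mice of the same strain and age given the same amount of an IgG2b isotype in the same way. Mice were 8 weeks old, and testes were collected 7 days after treatment. Nothing in the labels ties the libraries of a group to separate animals, so p-values here reflect no more than how these samples vary, and that variation may be technical.

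TFIID holds the TATA-binding protein TBP and a set of TBP-associated factors, many of which dock to each other through histone-fold pairs. Mediator bridges activators bound at enhancers and the polymerase, and is described as a head, a middle and a tail joined by MED14, with a kinase module that can dock or leave. In the mouse testis some of these proteins have germ cell paralogues, among them TAF4B, TAF7L and the TBP relative TBPL1. A bulk library cannot tell fewer cells of a type from less RNA per cell.

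The promoters of the members with an unadjusted p under 0.05 in the comparison given further on, where the RefSeq table for GRCm38.p6 holds them, are shown as the 250 bases before the RefSeq start of the gene, read 5′ to 3′ on the strand of the gene, with matches to a GC box or to a CRE core in capitals. The Med9 window is chr11:59947964-59948213 on the plus strand, the Taf12 window is chr4:132274125-132274374 on the plus strand and the Taf10 window is chr7:105744339-105744588 on the minus strand.
Med9: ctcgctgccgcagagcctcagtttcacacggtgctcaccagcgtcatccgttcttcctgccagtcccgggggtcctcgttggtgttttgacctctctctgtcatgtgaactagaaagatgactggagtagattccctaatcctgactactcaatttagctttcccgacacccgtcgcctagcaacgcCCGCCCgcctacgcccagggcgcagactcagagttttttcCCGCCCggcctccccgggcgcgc
Taf12: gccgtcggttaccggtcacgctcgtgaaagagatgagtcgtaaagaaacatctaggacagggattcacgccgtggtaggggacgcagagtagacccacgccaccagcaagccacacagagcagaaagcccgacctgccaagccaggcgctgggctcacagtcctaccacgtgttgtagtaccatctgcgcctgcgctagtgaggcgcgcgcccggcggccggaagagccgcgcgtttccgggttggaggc
Taf10: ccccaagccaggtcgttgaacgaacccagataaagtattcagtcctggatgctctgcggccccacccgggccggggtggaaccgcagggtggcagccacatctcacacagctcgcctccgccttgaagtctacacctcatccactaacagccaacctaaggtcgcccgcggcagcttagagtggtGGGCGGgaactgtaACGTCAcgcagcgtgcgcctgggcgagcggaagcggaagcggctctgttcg
Motifs were searched on both strands, with no overlap between matches in the windows shown. The box bound by TBP was searched as TATAAA. The box bound by NF-Y was searched as CCAAT. The GC box, bound by SP1 and its relatives, was searched as GGGCGG. The CRE core, bound by CREB and its relatives, was searched as TGACGT. The Med9 window held 2 GC boxes, which began 63 and 23 bases before the start, and the Taf10 window held a GC box at 65 bases and a CRE core at 51 bases before it. The Taf12 window held no match to any of the 4 motifs. In 44 of the 52 genes the table gave 54 windows, since some genes have more than 1 start. A GC box stood in 34 of the 54 (63.0%), against 32.7% of 32851 windows of all genes, and the box of TBP in 7 (13.0%), against 12.4%. The box of NF-Y stood in 20 (37.0%), against 33.8%, and a CRE core in 7 (13.0%), against 6.47%. The windows with a GC box came from 31 genes. Windows of all genes were not matched to the members for transcript level. The shares thus cannot tell a trait of these genes from one of expressed genes in general. These matches describe letters in the windows and are not measured binding sites.

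In the libraries the genes spanned a wide range of levels, with a median of 24.9 TPM, against 8.91 TPM over all tested genes. Of the 52, 5 averaged more than 100 TPM, 37 lay from 10 to 100 TPM and 10 were below 10 TPM. Taf9, whose protein pairs with TAF6 in TFIID and is shared with SAGA, was the most abundant. It stood at 861, 877, 901 and 938 TPM in anti-PD-L1 libraries and at 911, 904, 934 and 813 TPM in IgG libraries, and the groups overlapped. Its level is uncertain, because 1564 exon bases of Taf9 are shared on the same strand with Ak6, an adenylate kinase gene listed at 277 ± 18.7 TPM in anti-PD-L1 libraries and at 268 ± 20.8 TPM in IgG libraries (SD, n = 4). Med10, of the Mediator middle, followed at 280.0, 270.1, 272 and 299 TPM in anti-PD-L1 libraries and at 261, 271, 256 and 269.7 TPM in IgG libraries. The third was Med28, which sits where head and tail meet, at 154, 167, 160.5 and 163 TPM in anti-PD-L1 libraries and 177, 164, 171 and 159.5 TPM in IgG libraries. For both genes the groups overlapped. Tbp averaged 131 ± 7.87 TPM in anti-PD-L1 libraries and 122 ± 4.61 TPM in IgG libraries (SD, n = 4), and shares 2582 exon bases with Pdcd2 on the opposite strand.

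At the other end were Med18, Med14 and Taf4. Med18, which forms a mobile part of the head with MED20, was at 2.39, 2.57, 1.55 and 2.84 TPM in anti-PD-L1 libraries and at 3.01, 2.61, 2.34 and 3.54 TPM in IgG libraries. Med14, the scaffold of the complex, was at 3.98, 3.62, 3.19 and 3.48 TPM in anti-PD-L1 libraries and at 2.78, 3.84, 2.99 and 4.69 TPM in IgG libraries. Both genes overlapped between the groups. Subunits of the same assembly were thus listed at levels as far apart as Med14 and Med10, and in TFIID as far apart as Taf4 and Taf9. The 4 genes on the X chromosome, Taf9b, Med12, Taf1 and Med14, ranked 39, 46, 48 and 51 of the 52 by mean level.

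**Figure D1:**
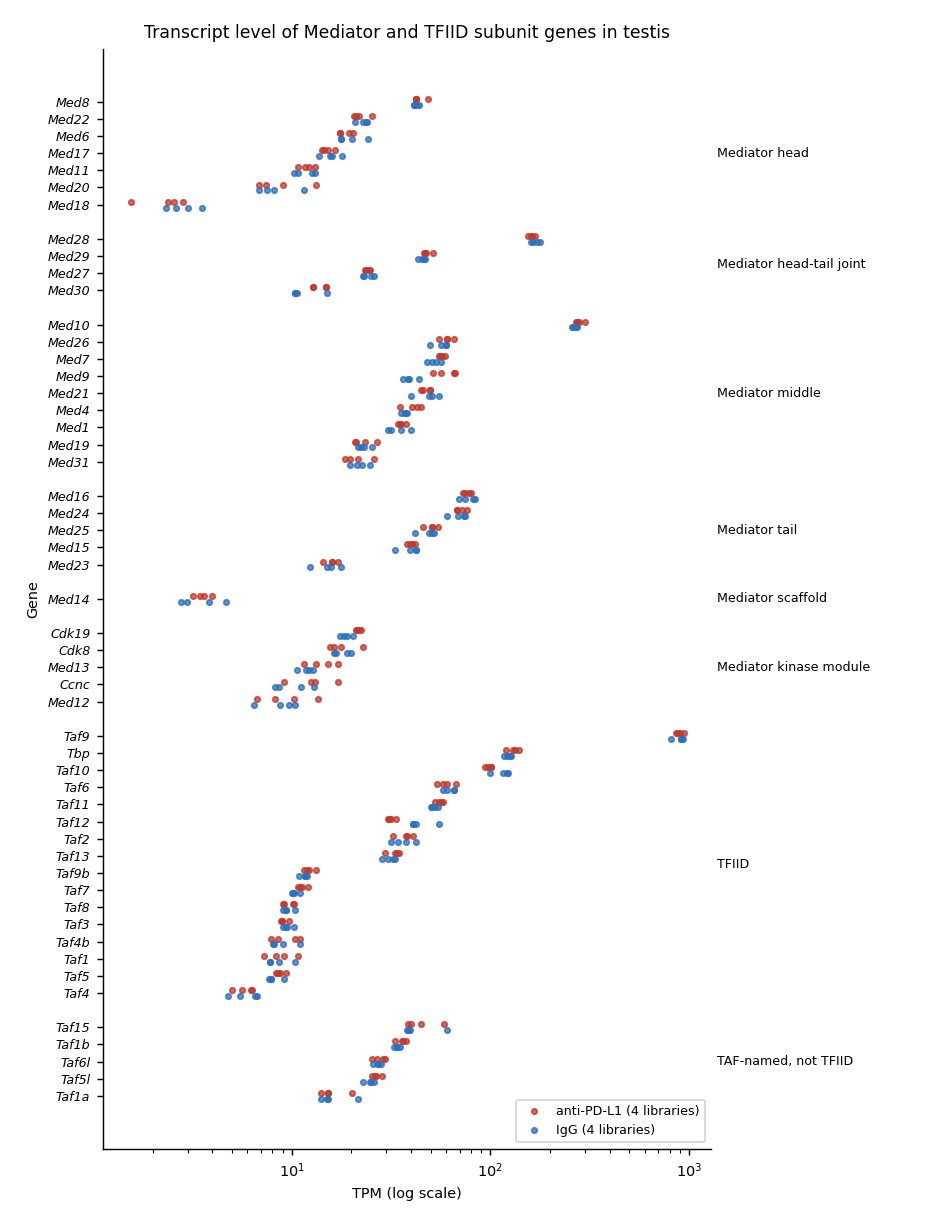
Transcript level of each of the 52 genes in TPM on a log axis, grouped by module. Each point is a library, with the 4 anti-PD-L1 libraries drawn above the 4 IgG libraries. Levels run from 1.55 TPM for Med18 in an anti-PD-L1 library to 938 TPM for Taf9.

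The pooled standard deviation within groups was a median of 8.23% of the mean for the 52 genes, from 3.89% for Taf11 to 28.6% for Med20, against a median of 12.4% for the 15933 tested genes within the same span of levels. Those genes were not matched to the members for level. Standard errors of the log2 differences had a median of 0.085 for the 52 genes and of 0.137 for all tested genes.

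Setting anti-PD-L1 libraries against IgG libraries asked which of these subunits changed. In limma with Benjamini-Hochberg adjustment 0 of the 52 genes passed the threshold of 0.05, and the lowest adjusted p of a member was 0.25, for Med9. Over all genes 0 of 20343 passed (0%), and their lowest adjusted p in limma was 0.0738. Of the 52 genes 4 (7.69%) had an unadjusted p under 0.05, against 5.23% of all tested genes. Med9 and Cdk19 had higher values in anti-PD-L1 libraries and Taf12 and Taf10 had lower ones, against 3% of all genes higher and 2.22% lower. Med9 and Taf12 were known from earlier results of these data when the genes were chosen, and among the other 50 genes the count was 2 (4%). Over all genes 611 were higher and 452 lower at that p, while after quantile normalization 524 were higher and 596 lower, and after TMM rescaling 498 and 547. The 4 anti-PD-L1 libraries did not overlap the 4 IgG libraries for 3 of the 52 genes (5.77%), against 2.99% of all genes, and for 1 of the 50 genes (2%) other than Med9 and Taf12. Med9 and Cdk19 lay entirely above, against 1.76% of all genes, and Taf12 entirely below, against 1.23%. Without anti-PD-L1 replicate 3, 7 of the 52 genes (13.5%) had an unadjusted p under 0.05, with Med4, Med13 and Ccnc added, against 5.1% of all genes. The median log2 difference was 0.04 for the 52 genes and 0.03 for all genes, in units of log2(TPM + 1), a scale that shrinks the differences of genes with low values. Differences were above 0 for 35 of the 52 genes (67.3%) and below 0 for 17, against 58.3% of all tested genes above 0.

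Med9, a small subunit of the middle that in yeast is held in the complex next to MED4, was the member with the widest difference. It was at 56.7, 65.4, 66.3 and 51.5 TPM in anti-PD-L1 libraries and at 38.3, 36.2, 39.1 and 43.6 TPM in IgG libraries. Every anti-PD-L1 library was above every IgG library, with the closest values in anti-PD-L1 replicate 4 and IgG replicate 4. The means were 60.0 ± 7.13 TPM in anti-PD-L1 libraries and 39.3 ± 3.09 TPM in IgG libraries (SD, n = 4), a log2 difference of 0.59 (SE 0.09, 95% interval 0.38 to 0.81). The gene lies on mm10 chromosome 11, from 59948206 to 59962205, and shares no annotated exon with another gene. Its neighbour Med9os is a noncoding gene on the other strand, which starts 64 bases before the annotated start of Med9, within the window printed above. Med9os was at 200.3, 213, 216 and 216 TPM in anti-PD-L1 libraries and at 211, 216, 226 and 206 TPM in IgG libraries. Med9os was thus the more abundant of the neighbours, its groups overlapped, and its log2 difference was -0.02 (SE 0.05).

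Around MED9 in the middle module, Med4 averaged 40.7 ± 4.08 TPM in anti-PD-L1 libraries and 37.0 ± 1.10 TPM in IgG libraries (SD, n = 4), and the groups overlapped. Med7, part of the hinge of the middle with MED21, averaged 56.8 ± 1.97 TPM in anti-PD-L1 libraries and 52.2 ± 3.71 TPM in IgG libraries (SD, n = 4). Med1, the subunit that binds nuclear receptors, averaged 35.6 ± 1.42 TPM in anti-PD-L1 libraries and 34.3 ± 4.22 TPM in IgG libraries (SD, n = 4). Med26, which brings elongation factors to the polymerase, averaged 60.4 ± 4.23 TPM in anti-PD-L1 libraries and 56.3 ± 4.81 TPM in IgG libraries (SD, n = 4). Med9 was the only gene of the 9 in this module, Med10, Med19, Med21 and Med31 included, with an unadjusted p under 0.05. Over all tested genes the share was 5.23%. The differences of this module ran from -0.05 to 0.59, with a median of 0.08.

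In the head, whose subunits contact the polymerase, 0 of 7 genes had an unadjusted p under 0.05, and log2 differences ran from -0.22 for Med18 to 0.07 for Med20. The difference of Med18 was -0.10 when anti-PD-L1 replicate 3 was left out, and leaving out IgG replicate 4 gave -0.14. Med17, a core subunit of the head, averaged 15.1 ± 1.05 TPM in anti-PD-L1 libraries and 15.8 ± 1.68 TPM in IgG libraries (SD, n = 4). Med20 was the most variable of the 52 genes: it was at 13.3, 7.43, 6.87 and 9.02 TPM in anti-PD-L1 libraries and at 6.87, 8.18, 7.50 and 11.6 TPM in IgG libraries. Its highest value in each group came from anti-PD-L1 replicate 1 and IgG replicate 4, and 513 of its exon bases are shared on the same strand with Gm20517. At the joint of head and tail 0 of 4 genes had an unadjusted p under 0.05. There Med30 was at 12.9, 14.9, 14.9 and 12.8 TPM in anti-PD-L1 libraries and at 10.4, 10.4, 10.6 and 15.1 TPM in IgG libraries, a log2 difference of 0.25 (SE 0.13). Only IgG replicate 4 reached the anti-PD-L1 values, and without it the difference was 0.37 and Med30 had an unadjusted p under 0.05. Without that library 9.15% of all tested genes had such a p, against 5.23% with all 8 libraries. The adjusted p of Med30 was then 0.31 in limma with Benjamini-Hochberg adjustment.

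In the tail, which receives activators, 0 of 5 genes had an unadjusted p under 0.05 and differences were narrow, from -0.02 to 0.07. Med15, a target of the lipid regulators SREBP, averaged 39.8 ± 1.55 TPM in anti-PD-L1 libraries and 39.4 ± 4.32 TPM in IgG libraries (SD, n = 4). Med24 averaged 71.1 ± 3.77 TPM in anti-PD-L1 libraries and 69.3 ± 6.36 TPM in IgG libraries (SD, n = 4). IgG replicate 1 gave the lowest value of all 8 libraries for each of Med15, Med16, Med23, Med24 and Med25, from 12.4 TPM for Med23 to 69.4 TPM for Med16. That library was also the lowest for genes outside the tail, among them Med26 (49.4 TPM), Med8 (41.1 TPM), Med13 (10.7 TPM) and Taf2 (31.7 TPM). The share of all genes lowest in it was not counted, so this is not read as a trait of the tail. Added over the 31 Mediator genes, anti-PD-L1 libraries held 1312 to 1363 TPM and IgG libraries 1240 to 1303 TPM, which do not overlap. Without Med9 anti-PD-L1 libraries held 1245 to 1311 TPM and IgG libraries 1202 to 1260 TPM, which do.

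The kinase module holds a cyclin-dependent kinase, CDK8 or its paralogue CDK19, with cyclin C, MED12, which activates the kinase, and MED13, which ties the module to the core. Cdk19 was at 21.0, 21.2, 22.4 and 21.9 TPM in anti-PD-L1 libraries and at 18.3, 17.4, 19.1 and 20.5 TPM in IgG libraries. Every anti-PD-L1 library was above every IgG library, by a narrow margin at IgG replicate 4. The log2 difference was 0.19 (SE 0.07), with an adjusted p of 0.83 in limma with Benjamini-Hochberg adjustment. After quantile normalization and without IgG replicate 2 its unadjusted p was no longer under 0.05. Cdk19 shares 268 exon bases with Cdk19os on the opposite strand, which averaged 38.3 ± 1.69 TPM in anti-PD-L1 libraries and 39.9 ± 2.44 TPM in IgG libraries (SD, n = 4).

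Cdk8 was at 22.8, 16.3, 15.6 and 17.6 TPM in anti-PD-L1 libraries and at 18.9, 16.3, 16.8 and 19.8 TPM in IgG libraries, and the groups overlapped. Ccnc, the gene of cyclin C, was at 17.1, 13.0, 9.12 and 12.6 TPM in anti-PD-L1 libraries and at 11.1, 8.64, 13.0 and 8.24 TPM in IgG libraries, a log2 difference of 0.30 (SE 0.19). Its value was decided by single libraries: without anti-PD-L1 replicate 1 the difference was 0.17, and without anti-PD-L1 replicate 3 it was 0.45. Med13 averaged 14.3 ± 2.42 TPM in anti-PD-L1 libraries and 11.9 ± 0.917 TPM in IgG libraries (SD, n = 4), a difference of 0.24 (SE 0.12), or of 0.15 without anti-PD-L1 replicate 2. Med12 varied widely, at 13.5, 8.21, 10.3 and 6.68 TPM in anti-PD-L1 libraries and at 8.70, 9.71, 6.46 and 10.4 TPM in IgG libraries. In this module 1 of 5 genes, Cdk19, had an unadjusted p under 0.05, against 5.23% of all tested genes.

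**Figure D2:**
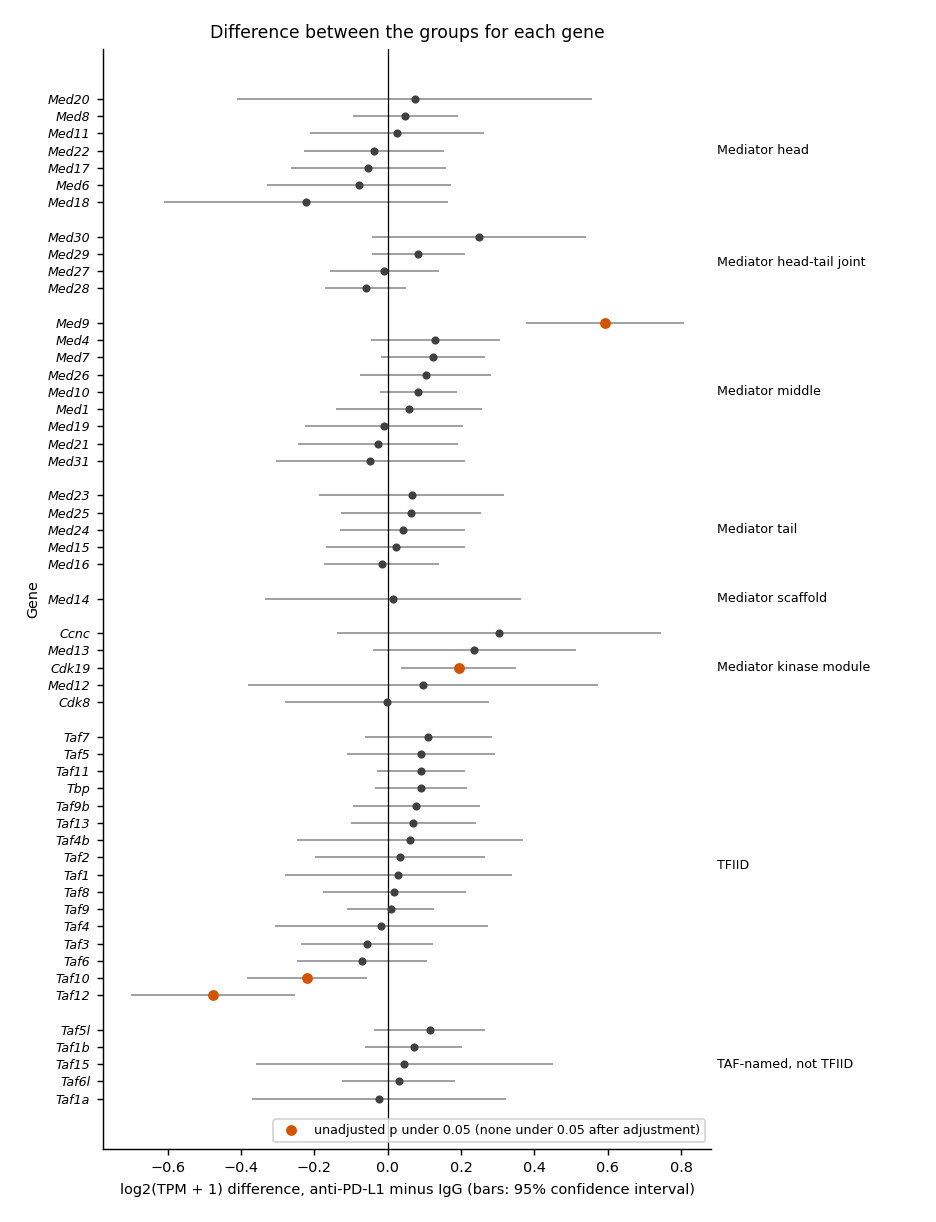
Difference in log2(TPM + 1), anti-PD-L1 minus IgG, for each of the 52 genes with its 95% confidence interval from limma, grouped by module. Med9 and Cdk19 lie above 0, Taf12 and Taf10 below, and the intervals of the other 48 genes include 0.

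In TFIID, Taf12 had the widest difference. Its protein forms a histone-fold pair with TAF4 or TAF4B and is shared with SAGA. Taf12 was at 33.5, 31.7, 30.4 and 31.0 TPM in anti-PD-L1 libraries and at 42.3, 55.0, 40.8 and 41.0 TPM in IgG libraries. Every anti-PD-L1 library was below every IgG library, and IgG replicate 2 stood far above the other IgG libraries. The means were 31.6 ± 1.32 TPM in anti-PD-L1 libraries and 44.8 ± 6.87 TPM in IgG libraries (SD, n = 4), a log2 difference of -0.48 (SE 0.10, 95% interval -0.70 to -0.25). Without IgG replicate 2 the difference was -0.38. The gene lies on mm10 chromosome 4, from 132274375 to 132295766, and shares no annotated exon with another gene.

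Taf10, whose protein pairs with TAF3 or TAF8 and is also part of SAGA, was at 101, 101, 93.6 and 97.2 TPM in anti-PD-L1 libraries and at 123, 115, 121 and 99.0 TPM in IgG libraries. Of the IgG libraries only replicate 4 fell within the anti-PD-L1 range. The log2 difference was -0.22 (SE 0.07), with an adjusted p of 0.77 in limma with Benjamini-Hochberg adjustment. The gene lies on mm10 chromosome 7, from 105739393 to 105744361. It shares 2106 exon bases with Ilk, the gene of integrin-linked kinase, on the opposite strand, and the strand setting of the counting is not given in the sources used here. Ilk averaged 25.2 ± 1.96 TPM in anti-PD-L1 libraries and 24.7 ± 2.47 TPM in IgG libraries (SD, n = 4).

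**Figure D3:**
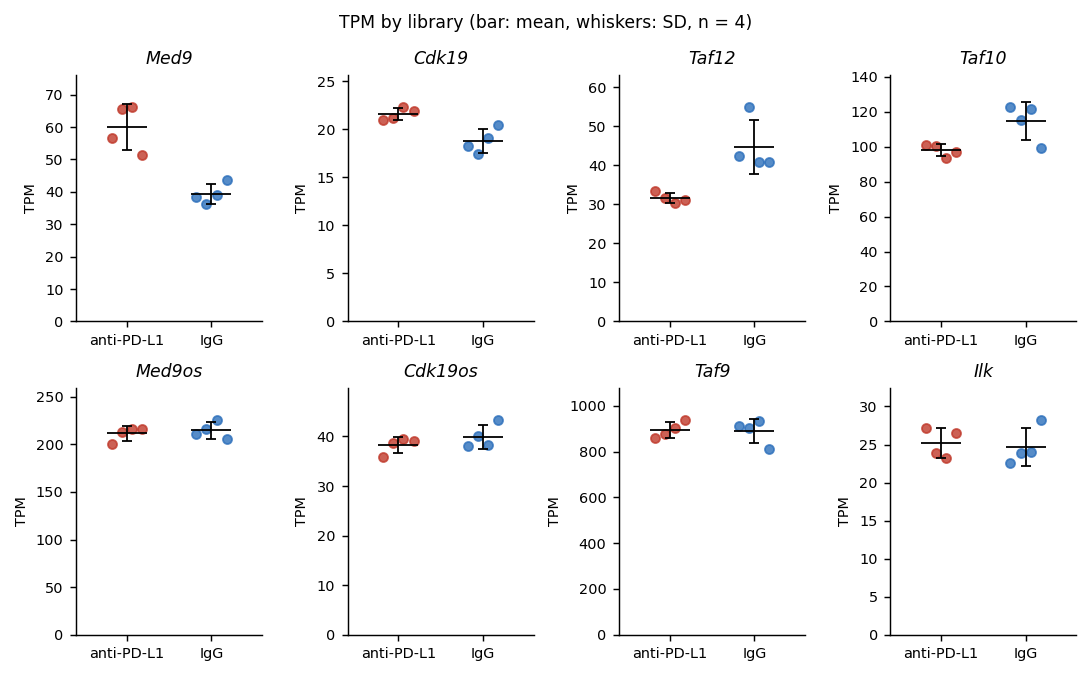
TPM in each library for the 4 genes with an unadjusted p under 0.05 (top row) and for Med9os, Cdk19os, Taf9 and Ilk (bottom row), with anti-PD-L1 left of IgG and bars for the mean and SD of 4 libraries. The groups are apart for Med9, Cdk19 and Taf12 and touch at IgG replicate 4 for Taf10, and those of the bottom row overlap.

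The histone-fold partners of these proteins had overlapping groups. Taf3, whose protein reads a methylated histone mark at active promoters, averaged 9.12 ± 0.388 TPM in anti-PD-L1 libraries and 9.53 ± 0.532 TPM in IgG libraries (SD, n = 4). Taf8 averaged 9.68 ± 0.646 TPM in anti-PD-L1 libraries and 9.54 ± 0.60 TPM in IgG libraries (SD, n = 4). Taf11 and Taf13, which pair with each other, differed by 0.09 (SE 0.05) and 0.07 (SE 0.08) on the log2 scale. Taf1, the largest subunit, averaged 8.87 ± 1.46 TPM in anti-PD-L1 libraries and 8.65 ± 1.25 TPM in IgG libraries (SD, n = 4). Taf2, which helps bind the start site, averaged 37.2 ± 3.43 TPM in anti-PD-L1 libraries and 36.4 ± 4.62 TPM in IgG libraries (SD, n = 4). Taf7, which binds TAF1, averaged 11.3 ± 0.597 TPM in anti-PD-L1 libraries and 10.4 ± 0.415 TPM in IgG libraries (SD, n = 4). Of the 16 TFIID genes 2 had an unadjusted p under 0.05, both lower, against 5.23% of all tested genes in either direction and 2.22% lower. Taf12, 1 of these 2, was known from earlier results. The median difference of the 16 genes was 0.03.

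Paralogues were compared within libraries as the log2 ratio of TPM + 1. Taf5l and Taf6l, which work in SAGA, were set against Taf5 and Taf6 of TFIID. Each of 5 pairs was tested with a two-sided exact permutation test over 70 assignments, whose smallest p is 0.0286. Cdk19 to Cdk8 had ratios of -0.11, 0.36, 0.49 and 0.30 in anti-PD-L1 libraries and of -0.05, 0.09, 0.18 and 0.04 in IgG libraries. In 3 of 4 anti-PD-L1 libraries it was above all IgG libraries, and in anti-PD-L1 replicate 1 below them. The mean ratio was 0.26 ± 0.26 in anti-PD-L1 libraries and 0.07 ± 0.09 in IgG libraries (SD, n = 4), with an exact permutation p of 0.229 and 0.714 after Benjamini-Hochberg adjustment over the 5 pairs.

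For the gonad-enriched Taf4b, needed in mice for lasting spermatogenesis, levels were 11.1, 8.54, 7.91 and 10.5 TPM in anti-PD-L1 libraries and 9.05, 8.16, 8.03 and 10.96 TPM in IgG libraries. Its widely expressed paralogue Taf4 was at 6.22, 5.0, 6.31 and 5.61 TPM in anti-PD-L1 libraries and at 4.78, 6.56, 5.50 and 6.73 TPM in IgG libraries. Both genes overlapped between the groups, and the mean log2 ratio of Taf4b to Taf4 was 0.62 ± 0.23 in anti-PD-L1 libraries and 0.54 ± 0.22 in IgG libraries (SD, n = 4). Taf9b on the X chromosome was at 11.5, 11.9, 12.2 and 13.3 TPM in anti-PD-L1 libraries and at 11.7, 11.7, 10.9 and 11.9 TPM in IgG libraries, about 1.33% of the level of Taf9 in TPM. The ratio of Taf9b to Taf9 averaged -6.08 ± 0.03 in anti-PD-L1 libraries and -6.15 ± 0.13 in IgG libraries (SD, n = 4). Both comparisons with Taf9 carry the uncertainty of its level, since it shares 1564 exon bases with Ak6 on the same strand.

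Taf5l, which stands in SAGA where TAF5 stands in TFIID, was at 25.5, 26.3, 26.5 and 28.5 TPM in anti-PD-L1 libraries and at 22.8, 26.1, 24.7 and 24.96 TPM in IgG libraries. Taf5 was at 8.31, 8.79, 8.53 and 9.34 TPM in anti-PD-L1 libraries and at 7.72, 7.88, 7.85 and 9.17 TPM in IgG libraries. The SAGA paralogue was thus the more abundant in all 8 libraries, with a mean log2 ratio of 1.51 ± 0.02 in anti-PD-L1 libraries and 1.49 ± 0.11 in IgG libraries (SD, n = 4). For the other SAGA paralogue the order was the opposite: Taf6l was at 29.5, 27.0, 28.9 and 25.4 TPM in anti-PD-L1 libraries and at 27.3, 27.2, 25.6 and 28.1 TPM in IgG libraries. Taf6 was at 53.7, 60.6, 57.5 and 67.0 TPM in anti-PD-L1 libraries and at 57.8, 65.8, 66.0 and 60.8 TPM in IgG libraries, and shares 1185 exon bases with Ap4m1 on the opposite strand. The log2 ratio of Taf6l to Taf6 averaged -1.08 ± 0.23 in anti-PD-L1 libraries and -1.18 ± 0.13 in IgG libraries (SD, n = 4). Exact permutation p was 0.657 for Taf4b to Taf4, 0.714 for Taf5l to Taf5, 0.514 for Taf6l to Taf6 and 0.343 for Taf9b to Taf9, and each was 0.714 after Benjamini-Hochberg adjustment over the 5 pairs.

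**Figure D4:**
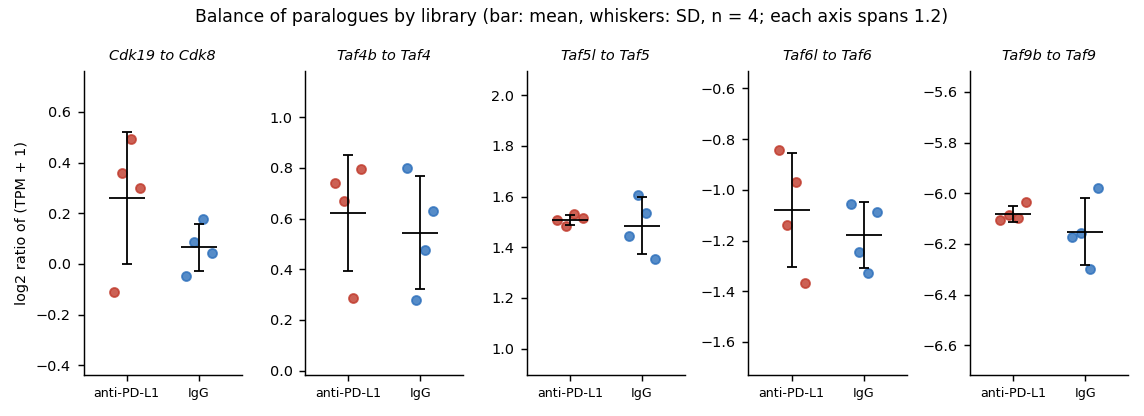
Log2 ratio of TPM + 1 between paralogues in each library, with anti-PD-L1 left of IgG and bars for the mean and SD of 4 libraries. The groups overlap in each of the 5 pairs, and each vertical axis spans the same width without starting at 0.

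Among the relatives that the choice of genes left out, Tbpl1 and Gtf2a1l were the most abundant. Tbpl1, required in mice for spermatids to mature, averaged 348 ± 25.5 TPM in anti-PD-L1 libraries and 335 ± 10.9 TPM in IgG libraries (SD, n = 4), above Tbp in all 8 libraries. Tbpl2, which acts in oocytes in mice, had 0 TPM in each anti-PD-L1 library and at most 0.07 TPM in IgG libraries. Taf7l, a germ cell partner of TBP on the X chromosome, averaged 32.0 ± 2.52 TPM in anti-PD-L1 libraries and 32.7 ± 3.83 TPM in IgG libraries (SD, n = 4), above Taf7. Gtf2a1l, the germ cell form of the TFIIA large subunit, averaged 272 ± 20.2 TPM in anti-PD-L1 libraries and 269 ± 9.81 TPM in IgG libraries (SD, n = 4). Med12l and Med13l were low, with means of 2.7 and 5.6 TPM over the 8 libraries. Of these 6 genes 5 were tested and 0 had an unadjusted p under 0.05.

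The rest of the promoter machinery was read from lists of 17 other general factors and 12 RNA polymerase II subunits. Of the general factors 0 of 17 had an unadjusted p under 0.05, and log2 differences ran from -0.17 to 0.09 with a median of -0.03. Of the polymerase subunits 1 of 12 had, against 5.23% of all tested genes. That gene was Polr2f, a subunit common to all the nuclear polymerases. It averaged 45.2 ± 4.72 TPM in anti-PD-L1 libraries and 55.0 ± 6.45 TPM in IgG libraries (SD, n = 4), the groups overlapped, and the difference was -0.28 (SE 0.10) with an adjusted p of 0.84 in limma with Benjamini-Hochberg adjustment. That count was 0 without anti-PD-L1 replicate 2 or 3 and without IgG replicate 1 or 3, and 2 when anti-PD-L1 replicate 4, or both anti-PD-L1 replicate 1 and IgG replicate 4, were left out. Polr2a, the gene of the catalytic subunit, averaged 51.8 ± 3.46 TPM in anti-PD-L1 libraries and 49.7 ± 3.41 TPM in IgG libraries (SD, n = 4).

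Depth is unknown, since TPM sums to 1000000 in each library. Anti-PD-L1 replicate 1 and IgG replicate 4 stood apart, with 31322 and 31572 rows above 0, against 29064 to 29904 in the other libraries. They were the 2 libraries with the highest values for 12 of the 52 genes (23.1%), against 21.0% of all tested genes, among them Taf15, Taf1a, Cdk8, Taf4b and Med14. Taf15 was at 58.4, 38.5, 39.6 and 45.0 TPM in anti-PD-L1 libraries and at 38.5, 38.0, 39.6 and 60.8 TPM in IgG libraries. Taf1a was at 20.1, 14.0, 15.2 and 15.2 TPM in anti-PD-L1 libraries and at 14.0, 15.3, 15.1 and 21.7 TPM in IgG libraries. For both genes these libraries were the highest of the 8. Without both libraries Med9 differed by 0.67, Cdk19 by 0.25, Taf12 by -0.54 and Taf10 by -0.30 on the log2 scale, and 6 of the 52 genes (11.5%) had an unadjusted p under 0.05, with Med30 and Med7 added, against 9.88% of all tested genes.

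**Figure D5:**
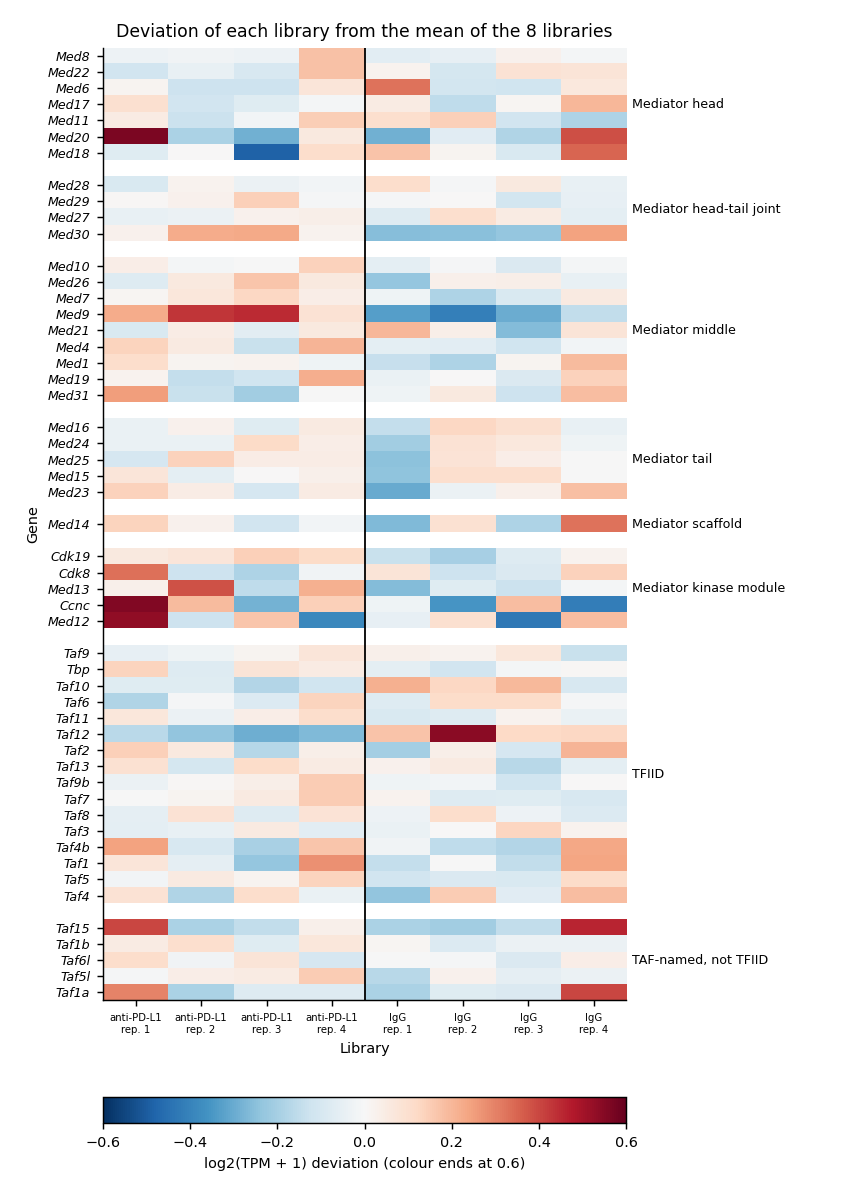
Deviation of each library from the mean of the 8 libraries in log2(TPM + 1) for the 52 genes, grouped by module, with the anti-PD-L1 libraries left of the IgG libraries. Taf15, Taf1a and Med20 are high in anti-PD-L1 replicate 1 and IgG replicate 4, while Med9, Cdk19 and Taf12 separate the groups.

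Markers of the tissue were as labelled, with the protamine and transition protein genes of elongating spermatids among the most abundant. Those 5 markers summed to 50627 to 58108 TPM in anti-PD-L1 libraries and to 53412 to 68025 TPM in IgG libraries. Of the 5, 2, Prm1 and Tnp1, had an unadjusted p under 0.05, both lower, and all 5 differences were below 0. Each marker count here stands beside 5.23% of all tested genes under that p, with 3% higher and 2.22% lower. The 5 Leydig cell markers summed to 2071 to 3345 TPM in anti-PD-L1 libraries and to 1124 to 1472 TPM in IgG libraries, and 1 of 5, Insl3, had an unadjusted p under 0.05, higher. Without Insl3 the other 4 summed to 317 to 553 TPM in anti-PD-L1 libraries and to 373 to 479 TPM in IgG libraries, which overlap, and 3 of the 5 differences were below 0. Of 5 adipocyte markers 4 were tested and 1, Adipoq, had an unadjusted p under 0.05, lower. Sums over the 5 were 6.74 to 9.85 TPM in anti-PD-L1 libraries and 9.27 to 69.8 TPM in IgG libraries. IgG replicates 1 and 3 held 69.8 and 27.26 TPM, and IgG replicates 2 and 4 held 9.27 and 10.45 TPM. Red blood cell markers, 4 genes with 0 under that p, summed to 193.68 TPM in IgG replicate 1. The other IgG libraries held 20.07 to 25.13 TPM and the anti-PD-L1 libraries 36.04 to 144.44 TPM. The 6 spermatogonia markers summed to 57.1 to 70.1 TPM in anti-PD-L1 libraries and to 50.3 to 71.0 TPM in IgG libraries, and 1 of 6, Id4, had an unadjusted p under 0.05, higher. Of the 5 round spermatid markers 1, Spaca1, had one, higher, with sums of 1063 to 1185 TPM in anti-PD-L1 libraries and 1012 to 1129 TPM in IgG libraries. Of the 5 spermatocyte, 6 Sertoli cell, 4 peritubular and smooth muscle cell and 5 macrophage markers 0 had an unadjusted p under 0.05. Differences were above 0 for 4 of 6 spermatogonia, 5 of 5 spermatocyte, 3 of 5 round spermatid and 4 of 4 red blood cell markers. Those of 5 of 6 Sertoli cell and 3 of 5 macrophage markers were also above 0. Differences were below 0 for 4 of 4 peritubular and smooth muscle cell markers and for 4 of 4 tested adipocyte markers. Over all tested genes 58.3% of differences were above 0. The T cell and B cell markers, 5 and 4 genes, each averaged less than 1 TPM. No listed marker was at 0 in all 8 libraries, and the part of these cell types in the differences of Med9, Cdk19, Taf12 and Taf10 was not tested.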

How the data were processed

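Per the file headers, the deposited table gives TPM per gene for 8 libraries, the authors' group means and a gene length; each library column was assigned by its title, and the means were not used as samples. Per the labels' protocols, RNA was extracted with TRIzol, freed of DNA with DNase I and made into TruSeq libraries. Tools named in the submitters' processing notes are HISAT2, StringTie, RSEM and CASAVA 1.8, with mm10 as the build. What each did, the annotation and the strand setting are not given by the sources used here. Since TPM are shares of a fixed total, more of an abundant transcript lowers the TPM of others.

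Values were taken as log2(TPM + 1), and genes averaging 1 TPM or more were tested in limma 3.58.1 under R 4.3.3 with an intensity trend, a group term and Benjamini-Hochberg adjustment over all 20343 genes. The fit was also run on simulated data with independent noise and planted changes wider than any member difference. That run does not show how well differences of the size seen here are found. Paralogue ratios used exact permutation in Python 3.11.15 with scipy 1.17.1. TMM factors were computed on TPM. Coordinates and exon overlaps come from GENCODE M21 for GRCm38, also called mm10, in which all 52 genes were found, and promoters from RefSeq for GRCm38.p6, where 44 of 52 matched.

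The members, lists and pairs were chosen with earlier results of these data known. Values per library are given for Med9 and Taf12, members with an unadjusted p under 0.05 or with groups that do not overlap, the 3 highest and 3 lowest members and the paralogue pairs; those of Med30, Med20, Ccnc, Med12, Taf15, Taf1a and Med9os were added after their values were seen. Other settings tried were the replicate number as a block, libraries left out, array quality weights, quantile normalization, TMM rescaling, a fit without the trend, a filter of 5 TPM or none, and 0.1 as the pseudocount. Leaving out anti-PD-L1 replicate 1 with IgG replicate 4 was among them.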

Additional observations from a re-analysis of the deposited data

Results flagged for a closer look

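A gap test for groups of 4 libraries was run on 104 groups, and 7 stood out, where chance gives about 1 in 20. That count is close to the rate of chance, and the share over all tested genes was not computed. The gaps are listed as single values and not as a trait of these genes. In IgG replicate 4, Taf15 was at 60.76 TPM, Taf1a at 21.67 TPM, Med30 at 15.12 TPM and Taf5 at 9.17 TPM, each above the other IgG libraries by most of the range of the group. Taf12 in IgG replicate 2 was at 55.02 TPM, against 40.8 to 42.3 TPM in the other IgG libraries. Med8, a subunit of the Mediator head, was at 48.61 TPM in anti-PD-L1 replicate 4, and Taf3 at 9.7 TPM in anti-PD-L1 replicate 3, each above the other libraries of its group.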

How the results depend on the processing

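None of the 52 genes passed the adjusted threshold under any of the 17 alternatives of the limma fit, and the adjusted p of Med9, the lowest of them at 0.0943 with array quality weights, reached 0.91 with the replicate block (limma, Benjamini-Hochberg). Over all genes the count past the threshold was 1 with a pseudocount of 0.1, 5 with array quality weights, 8 without both libraries that stood apart, and 0 to 15 with single libraries left out, the highest without IgG replicate 4. The count of members with an unadjusted p under 0.05 was 7 (13.5%) with array quality weights, against 10.6% of all genes. With single libraries left out the lowest count was 3 (5.77%), without IgG replicate 2, against 3.8% of all genes. The highest was 7 (13.5%), without anti-PD-L1 replicate 3, against 5.1% of all genes. Without IgG replicate 4 the count was 6 (11.5%), against 9.15% of all genes. The median member difference stayed between 0.01 and 0.08. Med9, Taf12 and Taf10 kept an unadjusted p under 0.05 in 17 of 17 alternatives and Cdk19 in 15 of 17. Med9 ranged from 0.54 to 0.67, Taf12 from -0.54 to -0.38, Taf10 from -0.30 to -0.18, Cdk19 from 0.15 to 0.25, Med30 from 0.20 to 0.40, Med13 from 0.15 to 0.33, Ccnc from 0.08 to 0.45 and Med18 from -0.30 to -0.10. Paralogue ratios with single libraries left out gave 0.12 to 0.32 for Cdk19 to Cdk8, -0.0119 to 0.19 for Taf4b to Taf4, -0.0211 to 0.0641 for Taf5l to Taf5, 0.02 to 0.19 for Taf6l to Taf6 and 0.02 to 0.13 for Taf9b to Taf9. The sign of Taf4b to Taf4 turned without IgG replicate 2 (-0.0119), and that of Taf5l to Taf5 without IgG replicate 4 (-0.0211) and when both libraries that stood apart were left out (-0.0208); the cause was not tested. With the replicate number as a block 4 members had an unadjusted p under 0.05 and 0 genes passed over all genes. Deviations of same-numbered libraries correlated from -0.198 to 0.10, and 3 of 8 libraries correlated best with their own number, so the numbers were not taken to pair the samples. Depth is unknown, and the limit it sets on low genes such as Med18 cannot be given.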
